A study of Mus musculus with 6 samples.

Results

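The genes examined here make, control, take up and remove cholesterol. They were 32 genes listed by their role in the pathway, and 29 of them were analysed among 19847 genes tested. A member was measured when a probe set of the array was annotated to that gene alone, and Acat2, Nr1h2 and Soat1 were not analysed here. The 29 comprised 17 enzymes of synthesis, 5 genes of sterol sensing, the sterol carrier gene Stard4, the nuclear receptor gene Nr1h3, the 4 genes Abca1, Abcg1, Apoe and Mylip, and the ester hydrolase gene Nceh1.

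The cells were mouse leukemia cells of a line that carries MLL-AF10, a fusion of the histone methyltransferase MLL with AF10. They grew in RPMI with 20% fetal bovine serum and 20% WEHI conditioned medium. One group of 3 samples received vehicle and the other group of 3 received 0.5 µM of an IKK inhibitor, a compound against the kinases that activate NF-kB. The sources used here give neither the compound's name, nor the treatment time, nor the number of clones behind the line. The comparison asks how these genes responded to the inhibitor. No label says that the 3 samples were grown separately, so the p-values cover the spread among these arrays alone, and that spread may be technical.

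Cells obtain cholesterol by making it from acetyl-CoA through mevalonate, farnesyl diphosphate, squalene and lanosterol, or by taking up lipoproteins. When sterols of the endoplasmic reticulum run low, SCAP escorts SREBP proteins to the Golgi, where they are cleaved to active transcription factors that raise synthesis and uptake genes, while INSIG proteins hold them back when sterols are plentiful. LXR nuclear receptors act on the other side: bound by oxysterols, they raise the exporters ABCA1 and ABCG1, apolipoprotein E and the ubiquitin ligase IDOL (Mylip), which limits lipoprotein uptake. Macrophages, which clear lipid-laden debris, are known for strong LXR-driven efflux.

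Promoter sequences were set beside the values because SREBP and the factors NF-Y and Sp1 are known to act next to each other at synthesis genes. Those shown are from RefSeq on GRCm38.p6 and cover the 250 bases before the annotated start, 5′ to 3′ on the gene's strand. Idi1 (chr13:8885356-8885605, + strand) is shown as an enzyme that fell and Hmgcs1 (chr13:119690101-119690350, + strand) as an enzyme holding the classical sterol element. Mylip (chr13:45389492-45389741, + strand), Abca1 (chr4:53159896-53160145, - strand) and Nceh1 (chr3:27182754-27183003, + strand) are shown as genes that rose. Capitals mark matches to 3 elements on either strand. They are the SRE-1 type element TCACNCCAC, the NF-Y box and the Sp1 box. The NF-Y box is written CCAAT, and it reads ATTGG where it lies on the other strand. The Sp1 box is written GGGCGG, and it likewise reads CCGCCC there.
Idi1: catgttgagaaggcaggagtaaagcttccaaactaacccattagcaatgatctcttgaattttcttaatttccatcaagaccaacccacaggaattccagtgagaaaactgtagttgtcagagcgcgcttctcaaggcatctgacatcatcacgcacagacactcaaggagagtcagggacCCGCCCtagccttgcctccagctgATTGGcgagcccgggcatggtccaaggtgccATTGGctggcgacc
Hmgcs1: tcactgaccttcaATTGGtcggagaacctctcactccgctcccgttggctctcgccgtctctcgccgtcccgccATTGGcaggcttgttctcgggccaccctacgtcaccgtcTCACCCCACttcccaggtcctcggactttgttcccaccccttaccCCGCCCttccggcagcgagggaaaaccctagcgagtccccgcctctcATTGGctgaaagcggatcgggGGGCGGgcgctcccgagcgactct
Mylip: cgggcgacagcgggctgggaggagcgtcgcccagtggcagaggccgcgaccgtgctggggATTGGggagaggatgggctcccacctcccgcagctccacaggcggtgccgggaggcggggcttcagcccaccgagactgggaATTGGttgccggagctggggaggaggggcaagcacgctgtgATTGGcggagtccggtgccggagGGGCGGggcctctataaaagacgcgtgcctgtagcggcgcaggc
Abca1: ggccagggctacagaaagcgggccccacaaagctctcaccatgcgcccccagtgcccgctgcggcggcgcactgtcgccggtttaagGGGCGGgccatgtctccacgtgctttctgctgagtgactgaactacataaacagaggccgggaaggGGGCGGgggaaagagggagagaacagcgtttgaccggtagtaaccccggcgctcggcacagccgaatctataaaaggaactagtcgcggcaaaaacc
Nceh1: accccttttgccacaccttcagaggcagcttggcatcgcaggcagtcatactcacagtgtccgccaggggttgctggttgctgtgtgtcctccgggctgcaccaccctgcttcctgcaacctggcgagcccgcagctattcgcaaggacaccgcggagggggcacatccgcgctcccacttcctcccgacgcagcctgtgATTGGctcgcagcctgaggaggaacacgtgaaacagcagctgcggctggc

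Windows were found for 27 of the 32 members and for 15 of the 18 listed synthesis enzymes. A CCAAT match lay in the window of 14 of these 15 enzymes, beside 37.5% of all 27025 genes with a window. A GGGCGG match also lay in 14 of the 15, beside 35.4% of all genes. The SRE-1 type element was found in Hmgcs1 alone among the members, starting 137 bases before the start, and in 1.22% of all genes. The shorter string CACCCCAC, which lies within that same Hmgcs1 match, also occurred in Acat2, so in 2 of the 15 enzymes and 2.98% of all genes. The palindromic E box TCACGTGA matched no member and 0.907% of all genes. An exact direct repeat of AGGTCA with a gap of 4 bases, the DR4 form of the LXR element, matched no member and 0.0148% of all genes. Forms of DR4 that differ from it in any letter were not searched, so this count cannot show that a member lacks an LXR element. A single AGGTCA lay in 3 of the 27 members, of which 2 were enzymes, and in 15.8% of all genes. Where a gene has several windows, a match in any of them was counted. These are matches of letters, not measured binding. Among the genes printed, Idi1, Hmgcs1 and Mylip held both NF-Y and Sp1 boxes, Abca1 held Sp1 boxes alone and Nceh1 an NF-Y box alone, so the mix did not separate the genes that rose from the enzyme that fell.

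**Figure D1:**
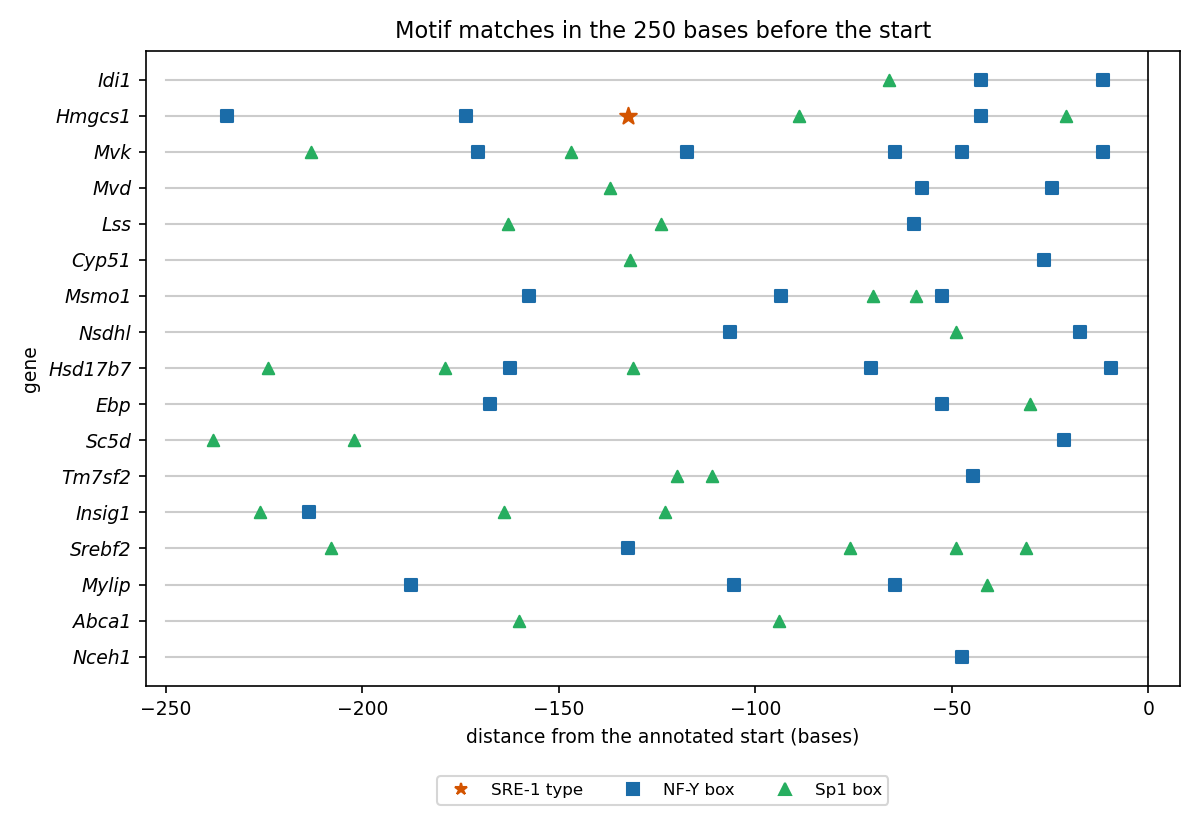
Distance in bases from the annotated start (x axis) of matches to the SRE-1 type element, the NF-Y box and the Sp1 box in the 17 analysed members with a single window (rows). Every synthesis enzyme drawn holds at least 1 NF-Y box and at least 1 Sp1 box, and the SRE-1 type element appears in Hmgcs1.

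Of the 17 synthesis enzymes 3 fell slightly. Of Abca1, Abcg1, Apoe and Mylip, called the 4 LXR target genes below, 3 rose, and so did Nceh1. Further LXR partners and targets were read separately. Of the 29 members, 3 were lower and 4 were higher with the inhibitor at a Benjamini-Hochberg adjusted p under 0.05 by limma. Over all genes tested, 13.9% were called, 6.75% lower and 7.1% higher. The 3 lower members were the enzymes Idi1, Fdps and Sqle. The 4 higher members were Abca1, Abcg1, Mylip and Nceh1. Intensities are the deposited linear values, which are not comparable between genes. In RNA from a whole culture, fewer cells of a type and less RNA per cell cannot be told apart.

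**Figure D2:**
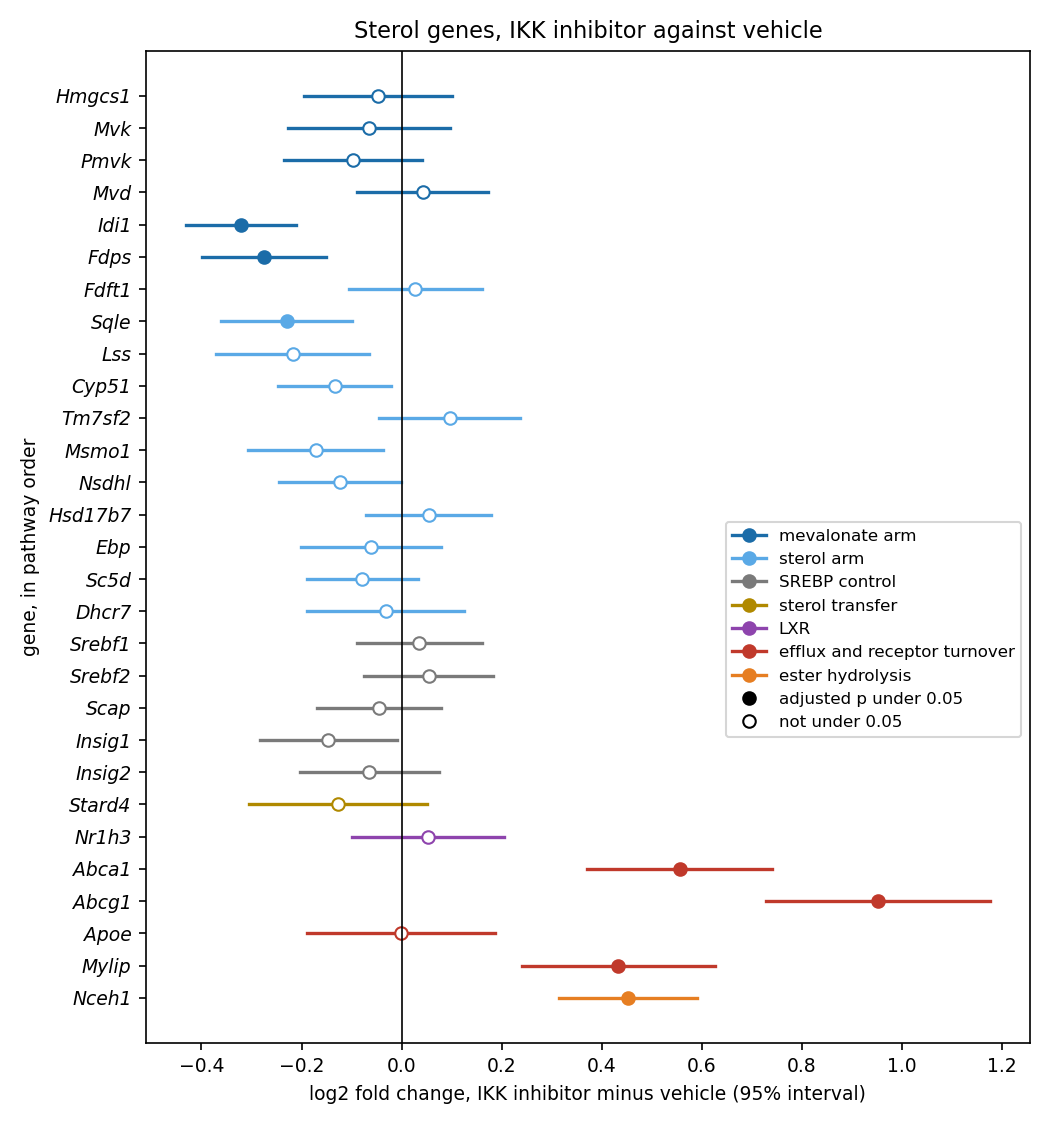
Log2 fold change, inhibitor minus vehicle, with its 95% interval from the limma fit (x axis) for each of the 29 members in pathway order (y axis). Filled points passed an adjusted p of 0.05. The 3 filled enzymes lie left of 0, between -0.32 and -0.23. The 4 filled genes Abca1, Abcg1, Mylip and Nceh1 lie right of it, between 0.43 and 0.95.

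In the mevalonate arm, which turns acetyl units into farnesyl diphosphate, the last 2 enzymes fell. Idi1, the isomerase that interconverts the isoprene units, read 1048, 1045 and 1075 on the vehicle arrays and 850.4, 827 and 859 on the inhibitor arrays. The groups did not overlap, and the level fell by 19.9% (log2 fold change -0.32 ± 0.05 SE, adjusted p = 0.00666 by limma). A second probe set annotated to Idi1 gave 997, 981 and 1027 against 803, 772 and 824, a log2 fold change of -0.33. Fdps, the farnesyl diphosphate synthase at the branch towards sterols and prenyl groups, had 2056, 2238 and 2119.8 with vehicle and 1739.7, 1773 and 1784 with the inhibitor. Its groups were also apart, and it fell by 17.4% (log2 fold change -0.28 ± 0.05 SE, adjusted p = 0.017). Leaving out vehicle replicate 2, vehicle replicate 3 or inhibitor replicate 1 ended the Fdps call (adjusted p = 0.0688, 0.0644 and 0.0713). The Idi1 call held in all 20 alternatives, with adjusted p up to 0.0383.

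The 4 earlier enzymes of this arm did not pass. Hmgcs1, the HMG-CoA synthase whose promoter holds the SRE-1 type element, had 564, 599 and 545 with vehicle and 519.97, 561 and 571 with the inhibitor. These groups overlapped, and the log2 fold change was -0.05 (95% interval -0.19 to 0.10). The values were -0.06 (-0.23 to 0.10) for the mevalonate kinase gene Mvk, -0.10 (-0.24 to 0.04) for the phosphomevalonate kinase gene Pmvk and 0.04 (-0.09 to 0.17) for the decarboxylase gene Mvd.

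In the sterol arm, which leads from farnesyl diphosphate through squalene to cholesterol, 1 of 11 enzymes was called. Sqle, the squalene epoxidase and a rate-limiting step of this arm, read 1466, 1459 and 1496 on the vehicle arrays and 1249.8, 1327 and 1198 on the inhibitor arrays. The groups were apart and the level fell by 14.7% (log2 fold change -0.23 ± 0.06 SE, adjusted p = 0.0377 by limma). This call was lost when any array but inhibitor replicate 2 was left out. The adjusted p was then 0.0968, 0.111 and 0.129 without vehicle replicates 1, 2 and 3, and 0.121 and 0.0846 without inhibitor replicates 1 and 3. Centring each array on its median ended it too (0.0921).

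A further 5 sterol-arm enzymes had all inhibitor arrays below all vehicle arrays without passing the threshold. Lss, the lanosterol synthase, had 468, 526 and 494 with vehicle and 429.9, 444 and 405 with the inhibitor, which put the log2 fold change at -0.22 (95% interval -0.37 to -0.06, adjusted p = 0.0719 by limma). For the methylsterol oxidase gene Msmo1 the values were 918, 905 and 962 against 823, 864 and 787, which put the log2 fold change at -0.17 (-0.31 to -0.04). Cyp51, the lanosterol demethylase, had 385, 384 and 393 against 359.6, 358 and 342, which put the log2 fold change at -0.13 (-0.25 to -0.02). The sterol dehydrogenase gene Nsdhl (-0.12) and the sterol desaturase gene Sc5d (-0.08) were arranged in the same way. Together with Idi1, Fdps and Sqle, 8 of the 17 enzymes had non-overlapping groups in the lower direction, against 17.2% of all genes, and none in the higher direction, against 15.7%. By limma, 7 of the 17 were lower at an unadjusted p under 0.05, against 13.9% of all genes, and none was higher, against 13.3%.

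With an intensity trend and robust prior, and with array weights, Lss and Msmo1 also passed, giving 5 enzymes called lower. When only genes above the median intensity were tested, Cyp51 passed as well, giving 6. Lower calls over all genes also rose, from 1340 to 2220 with the trend and robust prior and 2202 with array weights. Above the median intensity they numbered 2207, among fewer genes tested. The remaining 5 sterol-arm enzymes did not separate. Fdft1, the squalene synthase, differed by 0.03 on the log2 scale (95% interval -0.11 to 0.16), and its second probe set gave 0.04. The sterol reductase gene Tm7sf2 had 0.10 (-0.04 to 0.24), the ketosteroid reductase gene Hsd17b7 0.05 (-0.07 to 0.18) and the sterol isomerase gene Ebp -0.06 (-0.20 to 0.08). Dhcr7, which makes cholesterol from its direct precursor, had -0.03 (-0.19 to 0.12).

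None of the 5 genes of sterol sensing passed by limma, and 1 of them, Insig1, had an unadjusted p under 0.05. Srebf2, which encodes the SREBP that governs synthesis, read 1199, 1279 and 1161 on the vehicle arrays and 1249, 1278 and 1249.5 on the inhibitor arrays. The groups overlapped, with a log2 fold change of 0.05 (95% interval -0.07 to 0.18). Srebf1, which encodes the lipogenic SREBP1, had 0.04 (-0.09 to 0.16), and the escort gene Scap had -0.05 (-0.17 to 0.08). Insig1, which retains the SREBP complex and is itself an SREBP target, had 741, 688 and 759 with vehicle and 673, 666 and 636 with the inhibitor. Its groups were apart, with a log2 fold change of -0.15 (-0.28 to -0.01, adjusted p = 0.158 by limma), and it passed when only genes above the median intensity were tested (adjusted p = 0.0489). Insig2 had -0.06 (-0.20 to 0.07), and Stard4, a soluble carrier that moves cholesterol between membranes, had -0.13 (-0.30 to 0.05).

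On the efflux side, 3 of 4 LXR target genes rose. Abcg1, which encodes an exporter of cholesterol to lipoproteins, read 156, 173 and 174 on the vehicle arrays and 283, 342 and 350.4 on the inhibitor arrays. The lowest inhibitor array lay well above the highest vehicle array, and the level rose 1.93-fold (log2 fold change 0.95 ± 0.09 SE, adjusted p = 0.00149 by limma). Abca1, the exporter that loads lipid-poor apolipoproteins, had 86.4, 91.0 and 92.1 with vehicle and 126, 124 and 147 with the inhibitor. It rose 1.47-fold (log2 fold change 0.56 ± 0.08 SE, adjusted p = 0.00588). All 3 vehicle values of Abca1 lay below the array medians of 112 to 124, and the deposited table holds no detection calls.

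Mylip, the ligase that limits lipoprotein uptake, had 395, 441 and 424 with vehicle and 515, 619.7 and 569 with the inhibitor. The groups were apart, and it rose 1.35-fold (log2 fold change 0.43 ± 0.08 SE, adjusted p = 0.0166 by limma). Its call was lost without vehicle replicate 1, vehicle replicate 3 or inhibitor replicate 3 (adjusted p = 0.0572, 0.0606 and 0.0595). Apoe, which encodes the apolipoprotein that accepts exported cholesterol, had 229, 224 and 221 with vehicle and 232, 200.2 and 244 with the inhibitor. Its group means were 225 ± 4.15 and 225 ± 22.5 (SD, n = 3 each), the log2 fold change was -0.0009 (95% interval -0.19 to 0.19), and its sign depended on which array was left out. Apoe thus did not follow the other 3 genes past the test, although the difference between these genes was not tested. Nr1h3, which encodes LXR alpha, had 75.8, 75.7 and 75.4 with vehicle and 83.8, 72.5 and 79.6 with the inhibitor, with a log2 fold change of 0.05 (-0.10 to 0.21). All of its values lay below the array medians of 112 to 124, so its expression cannot be told from background here.

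Nceh1, a hydrolase that frees cholesterol from stored esters in macrophages, also rose. Its intensities were 974, 887 and 959.8 on the vehicle arrays and 1317, 1303 and 1238 on the inhibitor arrays. Every inhibitor array exceeded every vehicle array, for a 1.37-fold rise (log2 fold change 0.45 ± 0.06 SE, adjusted p = 0.00434 by limma). The calls of Abca1, Abcg1 and Nceh1 held in each alternative in which they were tested. Without vehicle replicate 3, 4 of the 29 members were called, namely these 3 and Idi1.

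**Figure D3:**
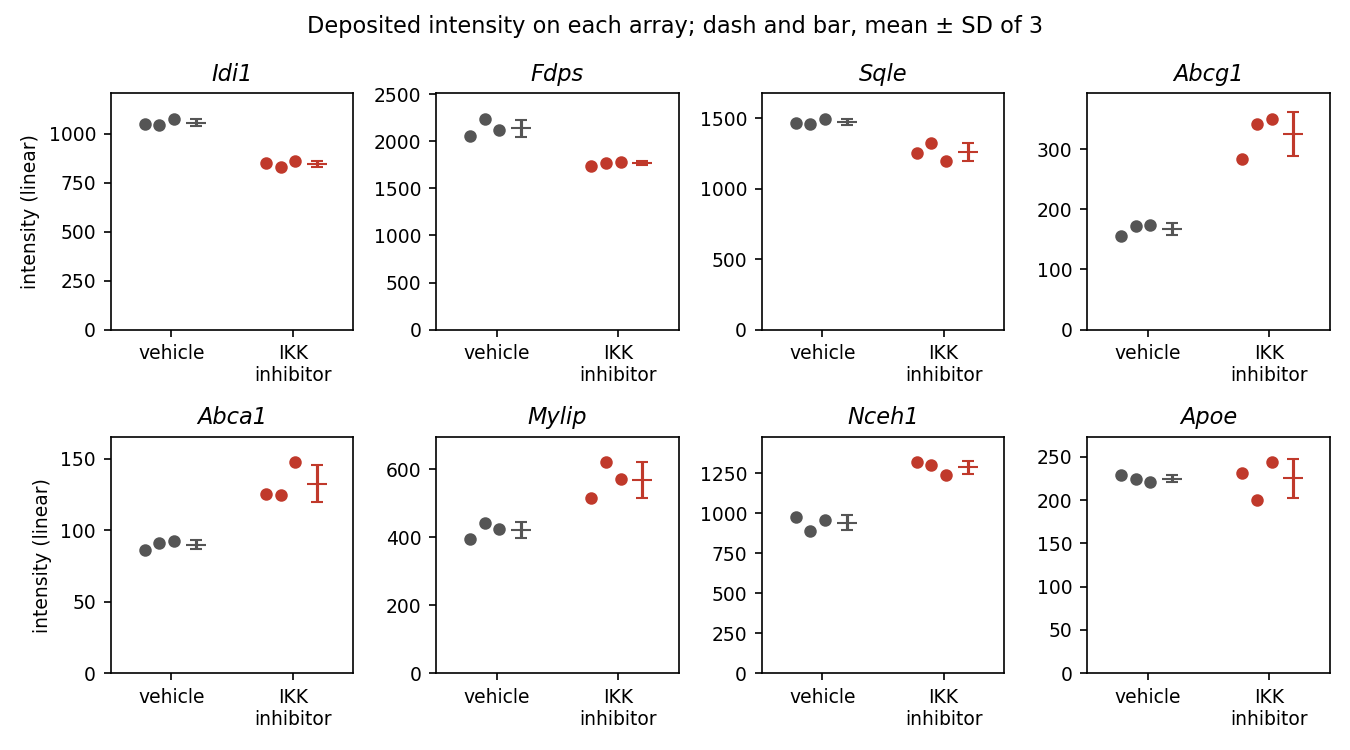
Deposited intensity on a linear axis that starts at 0 (y axis) for each array of the 2 groups (points), with the mean and SD of 3 arrays (dash and bar), for the 7 called members and Apoe. The groups of the 7 called members do not overlap, whereas the Apoe groups share a mean of 225.

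Set against each other, the 17 synthesis enzymes had a median log2 fold change of -0.08, from -0.32 to 0.10, and the 4 LXR target genes one of 0.49, from -0.0009 to 0.95. Over all genes tested the median was 0.01. The median of the LXR target genes lay 0.57 above that of the enzymes, and between 0.50 and 0.63 in the alternatives. On single arrays, the mean log2 level of the enzymes relative to the vehicle mean was -0.10, -0.06 and -0.12 with the inhibitor and -0.02, 0.01 and 0.01 with vehicle. The corresponding means of the LXR target genes were 0.40, 0.47 and 0.58 with the inhibitor and -0.05, 0.03 and 0.02 with vehicle. The enzymes thus shifted by a small amount on each inhibitor array and the LXR target genes by more, with Abcg1 contributing the largest change among them. These set values are descriptions without a test, since they come from the same arrays and the same genes.

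**Figure D4:**
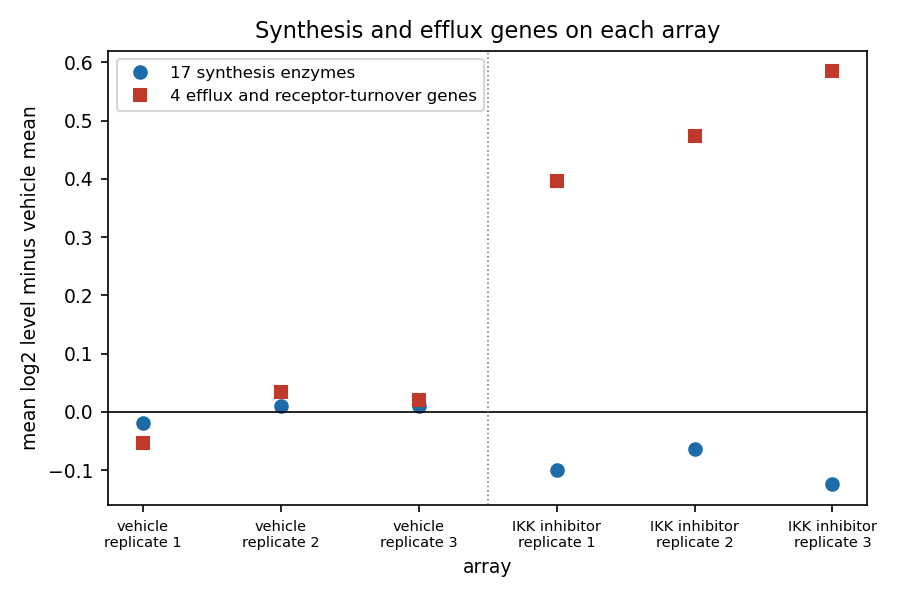
Mean log2 level relative to the vehicle mean (y axis) of the 17 synthesis enzymes and of the 4 LXR target genes on each of the 6 arrays (x axis). With the inhibitor the enzymes lie between -0.12 and -0.06 and the LXR target genes between 0.40 and 0.58.

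The arrays also recorded markers of blood cell maturation beside these changes. Of 16 monocyte and macrophage markers tested, 10 were higher by limma and none lower, also at an unadjusted p under 0.05. Among all genes tested, 7.1% were higher and 6.75% lower. The summed intensity of these markers was between 11167 and 11620 on the vehicle arrays and between 19711 and 20926 on the inhibitor arrays. Bright probe sets add most to such a sum, and no marker was listed at 0. The part of these markers in the rise of Abca1, Abcg1, Mylip and Nceh1, and of the uptake, lysosomal, LXR and lipid droplet genes described next, was not tested. Of 9 lymphoid, 3 erythroid and 8 stromal and hepatic markers, none passed by limma, and a single lymphoid marker was lower at an unadjusted p under 0.05. Of 12 neutrophil and granulocyte progenitor markers, 4 were higher and 4 lower. Of 9 markers of the leukemia line, 1 was higher and 2 were lower. Ptprc, the pan-leukocyte antigen CD45, read 1725 ± 59.3 in the vehicle group and 1965 ± 18.2 in the inhibitor group (SD, n = 3 each). The progenitor genes Kit and Cd34 fell by 0.54 and 0.30 on the log2 scale, and neither call held without vehicle replicate 2, vehicle replicate 3 or inhibitor replicate 1 (adjusted p = 0.0733, 0.0738 and 0.0625 for Kit, and 0.0782, 0.074 and 0.0637 for Cd34). The Kit call was also lost without vehicle replicate 1 (0.0504) and the Cd34 call without inhibitor replicate 3 (0.0663). Ptprc was called higher over all 6 arrays (0.19, adjusted p = 0.0488 by limma) but in no setting that left out an array, where its adjusted p lay between 0.0817 and 0.165. Centring each array on its median also ended the Ptprc call (adjusted p = 0.313).

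Other genes of the pathway were read from 9 lists, in which the 32 members are not counted again. Of 105 such genes tested, 26 were higher and 5 lower, beside 7.1% higher and 6.75% lower among all genes tested. The lower calls were thus no more frequent here than among all genes, and the difference from these shares was not tested. The 105 genes had a median of 0.0044 on the log2 scale. The rises lay mostly among genes that bring in, move and store sterols, and the falls among genes that spend isoprenoids.

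Of 9 lipoprotein and scavenger receptor genes, 4 were higher and none lower, with a median of 0.18. Msr1, the scavenger receptor that takes up modified lipoproteins, rose from 80.3 ± 8.68 to 299 ± 25.1 (SD, n = 3 each), which is a log2 difference of 1.90 ± 0.10 (SE). Lrp1, an endocytic receptor for remnant lipoproteins, rose by 0.95 ± 0.11, from 232 to 449.6. Cd36, a receptor for fatty acids and oxidised lipoproteins, rose by 0.79 ± 0.12 from a dim 40.5 to 70.4, and its call was lost when values below 64 were set to 64 (adjusted p = 0.183). No receptor gene was lower by limma at an unadjusted p under 0.05.

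Of 20 genes of lysosomal sterol export and of transfer at membrane contact sites, 8 were higher and none lower, with a median of 0.15, and 2 were lower at an unadjusted p under 0.05. Lipa, the acid lipase that hydrolyses cholesteryl esters in lysosomes, rose from 1603 ± 21.4 to 2766 ± 144 (SD, n = 3 each), which is a log2 difference of 0.79 ± 0.06 (SE). Scarb2, a lysosomal membrane protein, rose by 0.51 ± 0.06, and Npc1, which exports cholesterol from lysosomes, by 0.44 ± 0.05. Nceh1, a gene of neutral ester hydrolysis, and Lipa, a gene of acid ester hydrolysis, thus both rose. Of the 9 ester and lipid droplet genes given below, 5 were not called, including lipase genes.

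Of 14 further LXR partners and targets, 7 were higher and none lower, with a median of 0.25. Mertk, a receptor for dying cells that is also counted among the macrophage markers, rose by 1.96 ± 0.15, from 61.6 to 242. Lpl, the lipoprotein lipase, rose by 0.86 ± 0.09, from 98.4 to 179, and Apobr, a receptor for apolipoprotein B, by 0.59 ± 0.07. None of the 14 was lower by limma at an unadjusted p under 0.05. The higher count includes the partner gene Rxra (0.28), so it is not one of targets alone. The other 7, namely Abcg5, Abcg8, Abcg4, Pltp, Apoc1, Rxrb and Cd5l, were not called, with log2 fold changes between -0.05 and 0.31.

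Of 9 genes of ester storage and lipid droplets, 4 were higher and none lower, with a median of 0.16, and 1 was lower at an unadjusted p under 0.05. Plin2, the coat protein of lipid droplets, rose from 1807 ± 49.6 to 2675 ± 12.4 (SD, n = 3 each), which is a log2 difference of 0.57 ± 0.05 (SE). The carboxylesterase gene Ces1d rose by 0.50 and the lipase cofactor gene Abhd5 by 0.34. Ces1d lost its call without vehicle replicates 1, 2 and 3 or inhibitor replicate 1 (adjusted p = 0.0704, 0.0937, 0.0684 and 0.0892). Abhd5 lost it without vehicle replicates 1 and 2 or inhibitor replicate 1 (0.0531, 0.0666 and 0.0527) and with median centring (0.0555).

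Genes that use isoprenoids for prenylation, dolichol and ubiquinone lay lower, with 4 of 13 called lower, none higher and a median of -0.13. All 13 had a negative log2 fold change, against 9540 of the 19847 genes tested. This was not particular to the list, since all 11 genes of SREBP cleavage and turnover, described next, were negative too. Rabggta, a subunit of the transferase that prenylates RAB proteins, fell from 855 ± 36.5 to 633 ± 16.7 (SD, n = 3 each), which is a log2 difference of -0.43 ± 0.05 (SE). Coq2, an enzyme of ubiquinone synthesis, fell by 0.30 and Fntb, the farnesyltransferase beta subunit, by 0.26. Leaving out any array but inhibitor replicate 2 ended the calls of Coq2 (adjusted p between 0.0502 and 0.0914) and Fntb (between 0.0533 and 0.0917). None of the 13 was higher by limma at an unadjusted p under 0.05.

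The lists nearest to SREBP itself held few calls. Of 11 genes of SREBP cleavage and of sterol-driven turnover in the endoplasmic reticulum, 1 was lower, with a median of -0.06. It was Ufd1, a cofactor of protein extraction from that membrane (-0.22), whose call was lost without any array but inhibitor replicate 2 (adjusted p between 0.104 and 0.146) and with median centring (0.11). Of 18 fatty acid synthesis genes under SREBP1, 1 was higher, with a median of -0.005. It was Acss2, the acetyl-CoA synthetase of the cytosol and nucleus, which rose by 1.02 ± 0.17, from 281 ± 73.5 to 561 ± 47.9 (SD, n = 3 each), and whose adjusted p was 0.0538 without inhibitor replicate 3. Of 8 oxysterol enzymes, 1 was higher, the bile acid pathway gene Hsd3b7 (0.32), which was not called with median centring (adjusted p = 0.0572). Of 3 other synthesis genes tested, 1 was higher. Cyb5a, which encodes the electron donor cytochrome b5, rose by 0.50 ± 0.05.

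**Figure D5:**
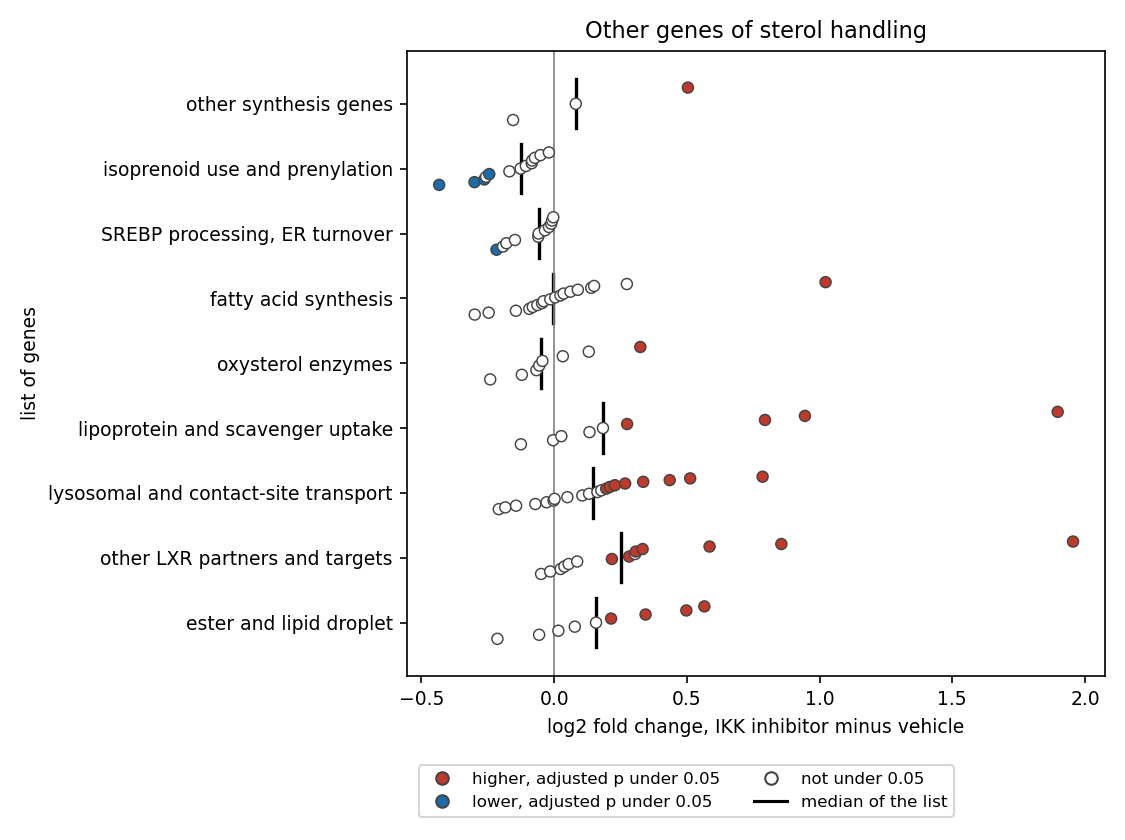
Log2 fold change, inhibitor minus vehicle (x axis), of each tested gene in 9 lists of sterol handling outside the 32 members (rows), with red for higher and blue for lower at an adjusted p under 0.05 and a bar at the median of each list. Called genes of the uptake, lysosomal, LXR and lipid droplet lists lie right of 0, and the 4 called genes of the isoprenoid list lie left of it.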

How the data were processed

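Total RNA from 6 samples was labelled as sense-strand target and read on Affymetrix whole-transcript arrays. Per the submitters' processing notes, the authors made the deposited intensity values in Affymetrix Expression Console. Neither its version, nor the summarization, nor a genome build is given in the sources used here. The linear values had array medians of 112 to 124. Values below 16 (5.94% of all) were set to 16 before log2, which understates changes of dim genes.

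Probe sets were named through the platform annotation, with 1 symbol for 21789, several for 1621 and none listed for 12102 of 35512. Symbols were updated by Entrez identifier for 21698 probe sets. A gene was its probe set with the highest mean, and 19847 genes above the floor on an array were tested. The 3 vehicle and 3 inhibitor arrays were compared by limma 3.58.1 (R 4.3.3) through lmFit and eBayes, without covariates and 2-sided, with Benjamini-Hochberg adjustment over all genes at a threshold of 0.05. The fit was tested on simulated data.

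The text names all members and, of each pathway list, up to 3 called genes per direction with the largest change. Leukemia-line markers follow the same rule. Of the list of LXR partners and targets, Rxra and the genes not called are named as well. Members and lists were chosen with earlier results of these data known. Alternatives were the replicate block, scaling, floors, filters on dim genes, probe set handling, variance prior, array weights, a stricter threshold and leaving out each array. Precision is limited by the number of arrays. Motifs were searched on both strands of the 250 bases before each start in RefSeq promoter windows (GRCm38.p6).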

Additional observations from a re-analysis of the deposited data

How the results depend on the processing

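The 7 calls among members numbered between 4 and 7 when an array was left out and 4 at an adjusted p under 0.01. Enzymes called lower numbered between 1 and 3 when an array was left out, 1 at an adjusted p under 0.01, 5 with an intensity trend and robust prior, 5 with array weights and 6 above the median intensity. Of Abca1, Abcg1, Apoe, Mylip and Nceh1, 3 or 4 were called higher throughout. The median difference between LXR target genes and enzymes stayed between 0.50 and 0.63. Over all genes, 2749 calls became 1679 with a replicate block, 4199 with the trend and robust prior and 4334 with array weights. They became 3938 above the median intensity, 984 at an adjusted p under 0.01 and between 1184 and 2812 when an array was left out. Same-numbered arrays had correlated deviations of 0.24, 0.13 and -0.10, so the numbers were not taken to pair samples, and not every array correlated best with its own number. With the replicate block, 6 members were called, without Sqle. No called member changed sign, and 3 of 22 not called (Fdft1, Dhcr7 and Apoe) did so in at least 1 setting. The causes of these shifts were not tested. The table holds no detection calls, so levels near background cannot be told from it.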
